A study of Mus musculus with 18 samples.

Results

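Mitochondrial ribosomal proteins are the nuclear-encoded proteins of the ribosome that works inside mitochondria. Genes were taken as members when their symbol began with Mrpl or Mrps followed by a number and at most 1 letter from a to d, which gave 78 of the 25926 genes in the table. This rule reads symbols alone. RNA-seq was done on mouse bone marrow-derived macrophages (BMDMs) grown from C57BL/6J animals (the strain is also labelled C57BL/6) over 7 days with M-CSF at 50 ng/mL. The BMDMs shared 6-well Transwell plates with kidney tubular epithelial cells (TECs), and a membrane with 0.4 μm pores kept both cell types apart. NC macrophages (n = 6) received PBS above TECs without crystals. COM macrophages (n = 6) received PBS above TECs that had been given the crystal calcium oxalate monohydrate (COM) at 100 μg/mL for 24 h. COM+Met macrophages (n = 6) stood above the same kind of crystal-exposed TECs and received 5.0 mM Met for 24 h. Met is given in the labels by this abbreviation alone. The TECs came from wild-type mice, and all 18 samples, NC included, were cocultures. Nothing in the labels says whether replicates came from separate animals or cultures, and each p-value below is therefore relative to a sample spread that could be technical.

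As background, the mitochondrial ribosome (mitoribosome) makes the few respiratory chain subunits that mitochondrial DNA encodes. Its proteins are translated in the cytosol and imported, while its RNA comes from mitochondrial DNA. Many of its proteins descend from bacterial ones, and others are found in mitochondria alone. In the small subunit the mRNA is decoded, and in the large subunit peptide bonds form and the chain leaves through an exit tunnel to the inner membrane. The name does not always give the place. Mrps30 and Mrps18a sit in the large subunit, and Mrps36 belongs to the 2-oxoglutarate dehydrogenase complex of the citric acid cycle. By place, 51 members belonged to the large subunit, 26 to the small subunit and 1 to neither.

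All 78 members had the same symbol in GENCODE M21 (GRCm38), and they lay on 17 chromosomes. This annotation was used for positions and overlaps alone, because the submitters' notes name the builds mm8 and mm9. For 33 members a protein-coding gene on the opposite strand started within 1000 bases of the member's start, on either side of it. Some of these partners overlap the member, as Twnk does over 33.4% of the exon bases of Mrpl43. Promoter sequence from RefSeq (GRCm38.p6) was found for 69 of the 78 members. The 250 bases before each annotated start were searched on both strands for the letters bound by 2 factors known for nuclear genes of mitochondria, nuclear respiratory factor 1 (NRF1, GCATGCGC) and GABP (CCGGAAGT). The NRF1 letters stood before 8 members, or 11.59% of the 69, and before 2.56% of all 27025 genes in the promoter table. The GABP letters stood before 10 members, or 14.49%, against 3.23% of all genes. Within these 250 bases no member held both. In Mrpl33 the GABP letters, read on the other strand as ACTTCCGG, straddle the annotated start and so fell outside the search, and they stand in lower case in the window printed for it. For 3 other motifs the shares were 7.25% of members against 6.86% of genes for the E-box CACGTG, 5.8% against 1.83% for the YY1 letters AAGATGGC and 2.9% against 1.77% for the CRE TGACGTCA. Windows of 30 bases around the sites are printed for the 5 members with NRF1 letters whose mRNA changed between COM and NC, so that sites of members moving in opposite directions can be compared. The first 3 fell and the last 2 rose, so of the 8 members with these letters 3 fell and 2 rose. Among the 61 without them 23 fell and 2 rose, beside 40.6% and 12.7% of all genes tested. Mrpl17 and Mrpl10 were not called with size factors, and Mrpl39 was not called without NC-5 and NC-6. Each runs 5′ to 3′ along the strand that reads GCATGCGC, with those letters in capitals, and the site nearest to the annotated start is given where a gene held several (Mrpl32 and Mrpl39).
Mrpl33, NRF1 site, minus strand of chr5:31613928-31613957: ctacttccgggGCATGCGCgggttccggta
Mrpl17, NRF1 site, plus strand of chr7:105811080-105811109: tctcagaggacGCATGCGCagtaactcggc
Mrpl10, NRF1 site, plus strand of chr11:97041437-97041466: cccagctccacGCATGCGCatagcggccct
Mrpl39, NRF1 site, minus strand of chr16:84735349-84735378: aggagaggcgcGCATGCGCccccgcgtggc
Mrpl32, NRF1 site, minus strand of chr13:14613041-14613070: gcggacttaacGCATGCGCtcagcccgcgt

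Of the 10 members with GABP letters, 6 fell in COM and 0 rose, and these 6 sites are shown for that reason, with CCGGAAGT in capitals. Among the other 59 matched members 20 fell and 4 rose, so the share that fell was 6 of 10 against 20 of 59, beside 40.6% of all genes tested. With size factors 2 of the 6, Mrps26 and Mrpl48, were still called. The median log2 fold changes were −0.42 with the letters and −0.33 without. These are descriptions of letters in a window and not of bound factors.
Mrps26, GABP site, minus strand of chr2:130563731-130563760: ctgcgcccggcCCGGAAGTggccgcggagc
Mrpl48, GABP site, plus strand of chr7:100583147-100583176: gcatcttggttCCGGAAGTttttaaaaccc
Mrps18c, GABP site, minus strand of chr5:100798591-100798620: cgcttcccgggCCGGAAGTcacgtgacccg
Mrpl51, GABP site, plus strand of chr6:125192099-125192128: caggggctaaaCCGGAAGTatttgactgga
Mrpl3, GABP site, plus strand of chr9:105053238-105053267: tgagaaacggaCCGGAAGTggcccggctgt
Mrps27, GABP site, minus strand of chr13:99344726-99344755: gcccgcctccgCCGGAAGTggtcctaccac

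Levels are given in FPKM, the fragments mapped to a gene scaled by its length and by the mapped fragments of the library, as the authors deposited them, and the depth of the libraries is unknown. All 78 members passed the filter on low values (a mean of 1 FPKM or more over the samples compared) in each comparison, so all were tested. In NC the group means ran from 2.55 FPKM for Mrpl47 to 64.6 FPKM for Mrpl52, with a median of 14.7 FPKM over the members. The median over all genes tested was 10.6 FPKM. The members with the highest mean level over the 18 samples were Mrpl52, Mrps21, Mrpl27, Mrpl30 and Mrpl20, and those with the lowest were Mrps35, Mrpl47, Mrps25, Mrpl19 and Mrps16. Together the members made up 0.298 to 0.347% of the summed FPKM of an NC sample.

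1 library stood apart. In COM-6 the summed FPKM of the members was 693, against 1086 to 1229 in the other 5 COM samples, 1240 to 1494 in NC and 1175 to 1281 in COM+Met. COM-6 was the lowest COM sample for 57 of the 78 members and the highest for 11, and in FPKM 43 members were more than 2-fold below the NC mean there, against 0 to 4 members in every other sample. The same library had the lowest sum of cytosolic ribosomal protein mRNAs, 5817 FPKM, and the highest sum of the 13 mitochondrially encoded mRNAs, 44206 FPKM, where the other COM samples had 19223 to 21877 FPKM. Correlations of the members' log2 levels between samples were 0.959 to 0.989 within NC, 0.982 to 0.989 within COM+Met and 0.674 to 0.986 within COM. NC-5 and NC-6 stood somewhat apart within NC, with a median member at 16.5 and 16.4 FPKM against 13.4 to 14.5 in NC-1 to NC-4. Calls of named members that turn on these libraries are given below.

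**Figure D1:**
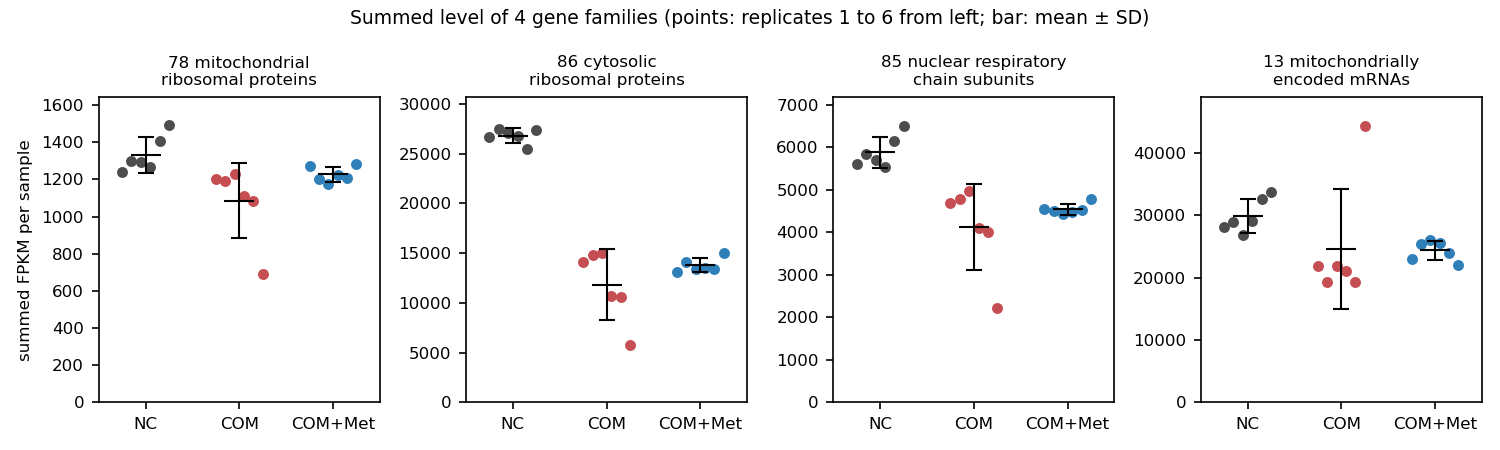
Summed FPKM per sample (y axes, linear, from 0) of the 78 mitochondrial ribosomal proteins, 86 cytosolic ribosomal proteins, 85 nuclear respiratory chain subunits and 13 mitochondrially encoded mRNAs. Each point is 1 sample and the bars give mean ± SD of 6 samples. The members' sum was 693 in COM-6 and 1086 to 1494 in the other 17 samples, while the cytosolic ribosomal proteins summed to at least 25433 in every NC sample and to at most 15048 in every COM sample.

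The macrophage identity of the samples was checked on 13 markers, whose summed FPKM was 11546 to 15815 in NC, 10710 to 14403 in COM and 12397 to 17224 in COM+Met. Single markers moved both ways under these sums. In COM against NC 3 rose and 2 fell, with log2 fold changes from −4.29 to 3.05. In COM+Met against NC 4 rose and 2 fell, from −4.39 to 2.82. Of 17 tubular epithelial markers 16 had a mean under 1 FPKM in each group and 5 (Aqp2, Havcr1, Krt18, Pax2 and Umod) were listed at 0 in all samples. Their sum was 11 to 18.4 FPKM in NC, mostly Cdh1, and at most 1.37 FPKM in COM and 0.332 FPKM in COM+Met. The sum of 14 neutrophil markers was 547 to 1066 FPKM in NC, 1227 to 1849 in COM and 727 to 852 in COM+Met, and Lcn2 made up most of it in COM. Of the 9 tested in COM against NC 2 rose and 4 fell, with a median log2 fold change of −1.13. The sum of 12 stromal markers was 29.3 to 87.9 FPKM in NC, 8.24 to 46.9 in COM and 4.50 to 9.86 in COM+Met. The part of these markers' cells in the results below was not tested, and in bulk RNA fewer cells of a type and less RNA per cell cannot be told apart.

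The first comparison asked how the members differed between macrophages above crystal-exposed TECs and those above unexposed TECs. Of the 78 members, 27 fell and 5 rose in COM (limma on log2(FPKM + 1), Benjamini-Hochberg adjusted p below 0.05 over 10900 genes). In the background 40.6% of all genes tested fell and 12.7% rose (53.3% in either direction), and among members these shares were 34.6% and 6.41%. The median log2 fold change of the members was −0.34, close to the −0.27 of all genes. 65 members lay below 0, and the 78 values spread less around the median of all genes than genes did in general, with a median distance of 0.193 against 0.341. Without NC-5 and NC-6 the counts were 13 lower and 3 higher (32.3% and 10.7% of all genes), and without COM-6 30 lower and 7 higher (44.2% and 15.5%). Changes were small. On the log2(FPKM + 1) scale 1 member, Mrpl33, passed the test with at least 2-fold change, where 17.7% of all genes did (11.7% lower and 5.99% higher). This scale understates changes of low genes, such as Mrps26, whose mean was 5.62 FPKM in NC and 2.66 FPKM in COM. Without COM-6 no member fell 2-fold, and Mrpl53 was the single member that rose by that much.

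The split of calls depended on scaling. Dividing each sample by a median-of-ratios size factor moved the median of all genes from −0.27 to 0.00 and gave 11 members higher (22.9% of all genes) and 9 lower (24% of all genes). All 5 rises and 9 of the 27 falls were kept there. These 9, Mrpl23, Mrpl28, Mrpl33, Mrpl36, Mrpl48, Mrpl58, Mrps16, Mrps17 and Mrps26, were also called lower without COM-6 and without NC-5 and NC-6. The other 18 were not called with size factors. Of the named members, Mrpl17 and Mrps36 lost their call without COM-6, while Mrpl20 (−0.35), Mrps35 (−0.24), Mrps12 (−0.47), Mrpl24 (0.18) and Mrpl53 (1.16) gained one.

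Mrpl33, a small conserved protein of the large subunit (chr5:31596935-31664384, plus strand), was lowest in COM relative to NC. Its level was 46.8, 49.8 and 65.6 FPKM in NC (lowest, median and highest of 6 samples), 11.9, 26.9 and 37.0 in COM and 23.4, 27.0 and 29.0 in COM+Met. No COM sample reached the NC range, and COM-1 to COM-3 (32.4 to 37.0) lay above COM-4 to COM-6 (11.9 to 21.3). The means were 52.0 ± 6.99 and 25.8 ± 9.73 (SD, n = 6), a log2 fold change of −1.07 ± 0.23 (SE, limma adjusted p = 0.00207) and of −0.77 with size factors.

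Other conserved proteins of the large subunit moved the same way. Mrpl28 was at 21.1, 22.6 and 30.4 FPKM in NC and at 5.27, 14.4 and 17.1 in COM. Mrpl36, a very short protein near the peptidyl transferase region, was at 23.2, 25.4 and 28.2 FPKM in NC and at 6.71, 15.2 and 18.7 in COM. Neither overlapped between the groups, and their log2 fold changes were −0.88 ± 0.22 (SE, limma adjusted p = 0.00545) and −0.86 ± 0.19 (SE, limma adjusted p = 0.00227). Mrpl30 went the other way. It rose from 24.9, 30.1 and 34.0 FPKM in NC to 32.7, 41.7 and 45.9 in COM (0.45 ± 0.11 SE, limma adjusted p = 0.00334), and COM-6 was the single COM sample inside the NC range. Mrpl32, a zinc-binding protein that is cut to size by a mitochondrial protease, rose by 0.32. Of the 13 core proteins of the large subunit 4 fell and 2 rose, beside 40.6% and 12.7% of all genes.

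In the central protuberance, the crown of the large subunit, 2 of 7 members fell and 1 rose, beside 40.6% and 12.7% of all genes. Mrpl48 fell from 6.03, 8.09 and 9.54 FPKM in NC to 2.29, 4.26 and 5.52 in COM (−0.84 ± 0.17 SE, limma adjusted p = 0.00141), and the groups did not overlap. Mrpl58, the former Ict1, is a peptidyl-tRNA hydrolase that frees chains from stalled ribosomes, and it fell from 8.31, 10.8 and 11.2 FPKM to 2.71, 5.98 and 8.77 (−0.72, limma adjusted p = 0.00766). Mrpl38 rose by 0.38 (limma adjusted p = 0.0304, a call lost without NC-5 and NC-6) and stood at 16.7 to 20.2 FPKM in COM+Met, above every NC (8.73 to 11.5) and every COM sample (8.77 to 16.3).

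Around the exit tunnel the 8 members split. Mrpl45, which ties the large subunit to the inner membrane, was at 8.84, 9.40 and 10.4 FPKM in NC, at 10.7, 12.2 and 13.1 in COM and at 12.8, 14 and 15.2 in COM+Met. NC did not overlap with either other group, and the log2 fold change in COM was 0.31 ± 0.08 (SE, limma adjusted p = 0.00577). Its neighbour Mrpl39 rose from 8.79, 10.1 and 10.6 FPKM to 10.7, 11.6 and 14.7 (0.25 ± 0.09 SE, limma adjusted p = 0.0345). This call too was lost without NC-5 and NC-6, while those of Mrpl45, Mrpl30 and Mrpl32 were kept. With the replicate number as a block neither Mrpl39 nor Mrpl32 was called, and Mrpl32 was not called with COM-4 to COM-6 alone. Mrpl23, a conserved protein of the tunnel rim, fell from 28.2, 32.1 and 40.7 FPKM to 8.87, 20.9 and 25.6 (−0.81 ± 0.22 SE, limma adjusted p = 0.00829) and did not overlap with NC. Mrpl17 fell by 0.51 on the log2 scale and was called neither with size factors nor without COM-6 (−0.38, limma adjusted p = 0.0588). Mrpl22, Mrpl24, Mrpl44 and Mrpl47 did not pass the test in COM, with log2 fold changes of −0.33, 0.15, −0.03 and 0.04.

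The stalk of the large subunit recruits the translation factors. Mrpl10 and Mrpl11 at its base fell, by 0.40 and 0.45 on the log2 scale (limma adjusted p = 0.0193 and 0.0306), and neither passed with size factors. Mrpl12, which forms the stalk itself, had 15.9 to 25.1 FPKM in NC and 7.47 to 18.3 in COM (−0.44, limma adjusted p = 0.0582). Mrpl53 was at 3.0, 7.08 and 10.8 FPKM in NC and at 2.11, 16.6 and 20.3 in COM, and 5 COM samples (11.3 to 20.3) lay above all of NC while COM-6 lay below. Its log2 fold change was 0.75 (limma adjusted p = 0.16), and 1.16 without COM-6 (limma adjusted p = 0.00242). In the annotation 88% of the exon bases of Mrpl53 are shared with Gm42688 on the same strand, so the reads of both cannot be told apart.

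The small subunit had 11 of 26 members lower and 0 higher, beside 40.6% and 12.7% of all genes. With size factors 3 were lower and 2 higher, beside 24% and 22.9% of all genes. Mrps26, found in mitochondria alone, went from 4.99, 5.41 and 6.86 FPKM in NC to 0.375, 2.94 and 3.70 in COM (−0.95 ± 0.25 SE, limma adjusted p = 0.007). Mrps17, an early-binding core protein, fell from 15.8, 18 and 19.4 to 6.64, 10.0 and 13.9 FPKM (−0.77 ± 0.14 SE, limma adjusted p = 0.000642). Mrps16 fell by 0.62, and none of these 3 overlapped with NC. Mrps12, the decoding centre protein, was at 16.7 to 23.0 FPKM in NC, at 12.2 to 16.5 in 5 COM samples and at 1.54 in COM-6. It did not overlap between groups but missed the test (−0.90, limma adjusted p = 0.0691), and without COM-6 it passed at a smaller size (−0.47, limma adjusted p = 0.00149). Over all members 18 did not overlap between COM and NC, where 38.2% of all genes did not. Of these 16 were lower and 2 higher (29.7% and 8.6% of all genes). For groups that do not overlap, a two-sided exact permutation test can only give 0.00216, the smallest p that 6 against 6 samples allow. It therefore adds no support for these 18.

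**Figure D2:**
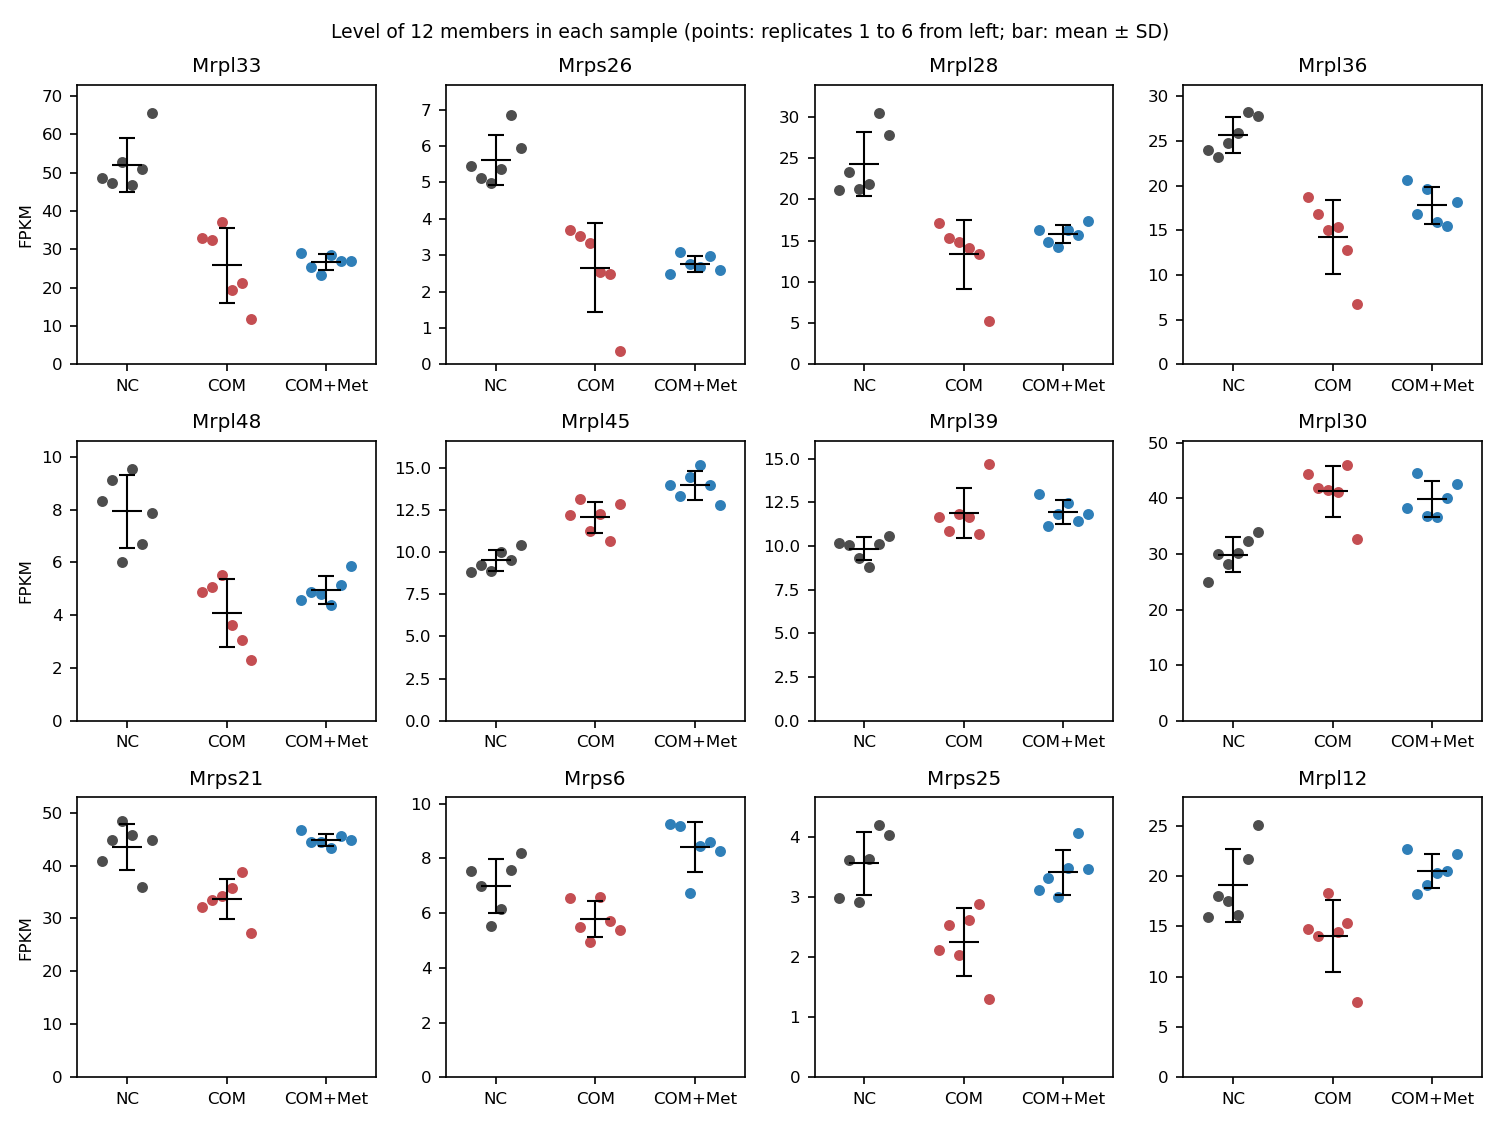
FPKM (y axes, linear, from 0) of 12 members in NC, COM and COM+Met, with 1 point per sample and bars for mean ± SD of 6 samples. Mrpl33, Mrps26, Mrpl28, Mrpl36 and Mrpl48 lie lower in every COM sample than in any NC sample, Mrpl45 and Mrpl39 lie higher, and Mrps21, Mrps6 and Mrps25 lie higher in every COM+Met sample than in any COM sample.

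The second comparison asked how the members differed with Met in macrophages above crystal-exposed TECs. It shares the COM samples with the first. 5 of 78 members rose, Mrpl12, Mrpl42, Mrps6, Mrps21 and Mrps25, where 5.77% of all 10364 genes tested rose (598 genes). 0 members fell by limma, where 7.58% of all genes did. At an unadjusted p below 0.05, 13 members were higher and 0 lower, where 13% of all genes were higher and 15.6% lower. With size factors 22 members were higher and 0 lower at that level (15.4% and 16.7% of all genes). The median log2 fold change of the members was 0.18 against 0.00 for all genes, and 74 of 78 members lay above 0. Without COM-6 the members' median was 0.08 (−0.04 for all genes), 59 lay above 0, and 13 rose with 0 falls (10.6% and 15.9% of all genes). The count also turned on which COM samples stood for the group, with 19 members higher and 10 lower against COM-1 to COM-3 (17.8% and 43.4% of all genes), and 18 higher and 0 lower against COM-4 to COM-6 (16.1% and 7.77%). With size factors 9 rose (7.91% of all genes) and 0 fell (9.54%). No member changed 2-fold, which 2.22% of all genes did (0.608% higher and 1.61% lower).

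Mrps6, a core protein of the small subunit (chr16:92058270-92112227, plus strand), was at 4.94, 5.60 and 6.58 FPKM in COM and at 6.72, 8.53 and 9.26 in COM+Met, with NC at 5.54 to 8.20. The COM and COM+Met samples did not overlap (0.47 ± 0.09 SE, limma adjusted p = 0.00504). Mrps21 (chr3:95862634-95871519, minus strand), the counterpart of a bacterial protein of the small subunit platform, went from 27.3, 33.9 and 38.7 FPKM in COM to 43.4, 44.6 and 46.7 in COM+Met (0.41 ± 0.08 SE, limma adjusted p = 0.00698). NC lay at 36.0 to 48.3 FPKM, and 5 NC samples were above all COM samples. Mrps25 went from 1.30, 2.33 and 2.89 FPKM to 3.01, 3.40 and 4.07 (0.46 ± 0.12 SE, limma adjusted p = 0.025), and NC held 2.92 to 4.21 FPKM. It was called neither against COM-4 to COM-6 alone nor with the replicate number as a block. In the annotation 69.8% of the exon bases of Mrps25 lie opposite exons of Nr2c2, and without knowledge of strand in the counting the reads of both cannot be told apart.

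Mrpl12 rose from 7.47, 14.6 and 18.3 FPKM in COM to 18.3, 20.4 and 22.7 in COM+Met (0.55 ± 0.16 SE, limma adjusted p = 0.0396), and the groups met at 18.3 FPKM. Its call too was lost with the replicate number as a block. Mrpl42, a peripheral protein of the large subunit, rose from 23.5, 26.8 and 33.3 to 31.9, 37.4 and 42.7 FPKM (0.44 ± 0.10 SE, limma adjusted p = 0.0117). 8 members did not overlap between COM+Met and COM, all of them higher with Met, where 5.83% of all genes did so in that direction and 5.34% in the other. They were the 3 above and Mrpl16, Mrpl34, Mrpl38, Mrps7 and Mrps18b, which missed the adjusted threshold and are named here after their values were seen. The strongly lowered members of the COM group showed no call with Met. Mrpl33 differed by 0.14, Mrps26 by 0.14, Mrpl28 by 0.30 and Mrpl36 by 0.35 between COM+Met and COM, with limma adjusted p of 0.731, 0.748, 0.38 and 0.25. Without COM-6 these differences were −0.06, −0.12, 0.08 and 0.17 and none was called, and against COM-1 to COM-3 alone Mrpl33 and Mrps26 were called lower with Met. Against COM-4 to COM-6 alone Mrpl33 was called higher with Met, and Mrps26, Mrpl28 and Mrpl36 were not called. The direction for Mrpl33 thus turned on which COM samples were used. Mrps18b, Mrpl24 and Mrpl45 were called higher with Met without COM-6 (0.21, 0.18 and 0.22).

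**Figure D3:**
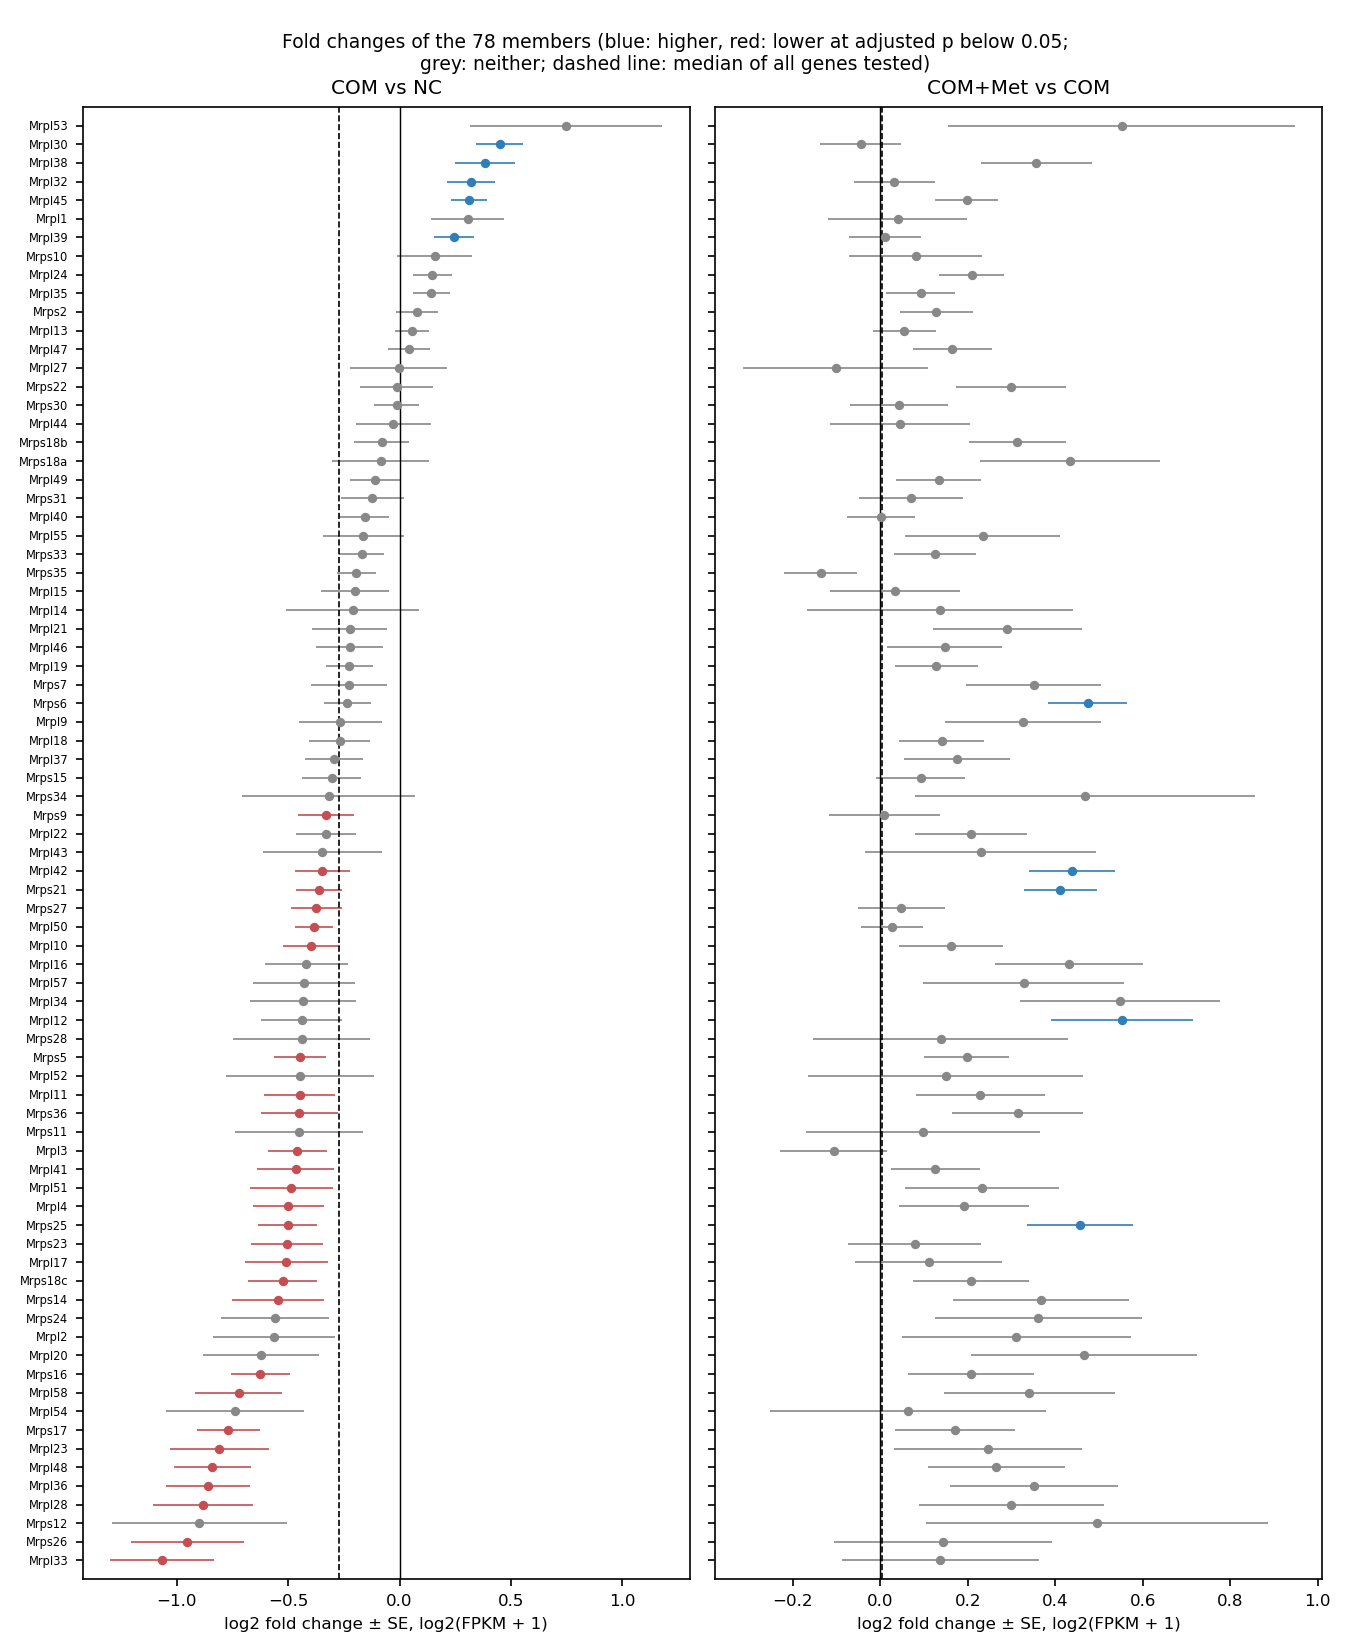
Log2 fold changes with SE (x axes, scale of log2(FPKM + 1)) of all 78 members for COM against NC and COM+Met against COM, ordered by the first. Blue points are higher and red points lower at adjusted p below 0.05, and the dashed lines mark the median of all genes, −0.27 and 0.00. In COM 27 members are red and 5 blue, and with Met 5 are blue and 74 lie right of 0.

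The third comparison set COM+Met against NC. It shares its samples with both others. 15 members were higher and 28 lower, where 19.3% of all 10786 genes were higher and 55.9% lower (75.2% together). The members' median was −0.12 and that of all genes −0.26. With size factors 36 members were higher and 10 lower (34.8% and 35.9% of all genes, 70.7% together) and the members' median turned to 0.16, so the direction of the family as a whole depended on scaling. On the log2(FPKM + 1) scale Mrpl53 was the single member that changed 2-fold (19.3% of all genes did, 5.66% upward). It was at 11.9 to 22.2 FPKM in COM+Met, above all NC samples (1.30 ± 0.24 SE, limma adjusted p = 0.000268). All 15 rises, among them Mrpl24, Mrpl30, Mrpl38, Mrpl39, Mrpl45 and Mrps18a, and 10 of the 28 falls, among them Mrpl33, Mrps26 and Mrps17, were kept both with size factors and without NC-5 and NC-6. 27 members did not overlap between the groups, 8 higher and 19 lower, where 57.6% of all genes did not (14.1% higher and 43.6% lower). Mrpl33 remained at 26.7 ± 2.05 FPKM against 52.0 ± 6.99 in NC (−0.93, limma adjusted p = 3.02e-07).

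**Figure D4:**
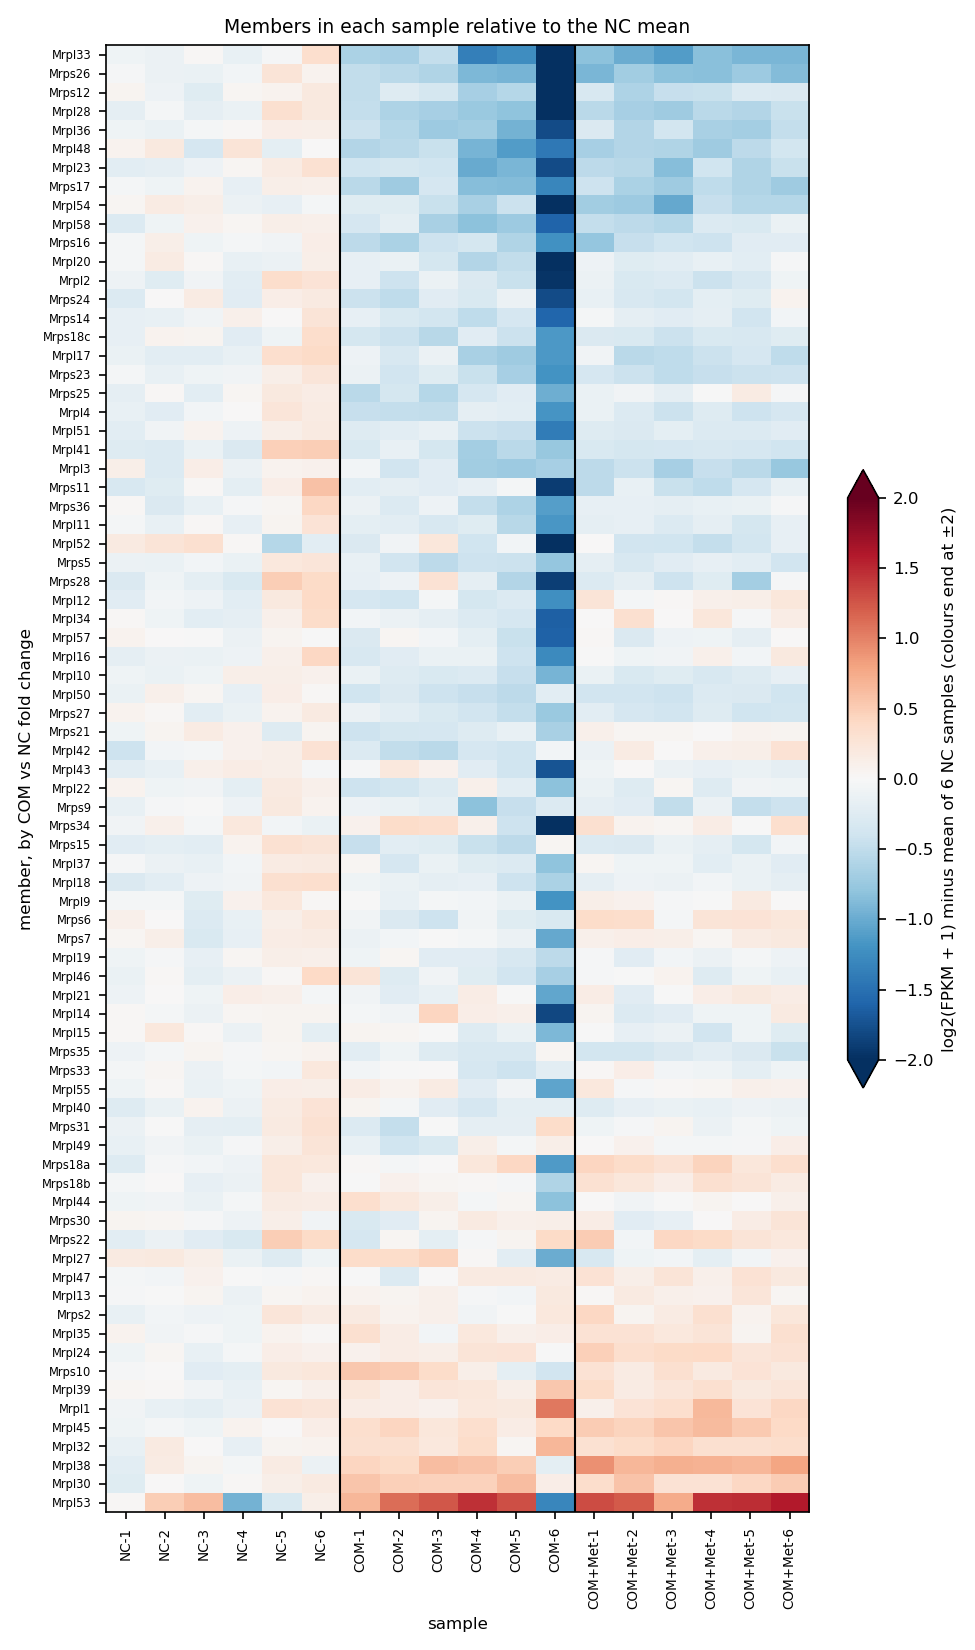
Log2(FPKM + 1) of each member (rows, ordered by COM against NC fold change) in each sample (columns) minus the mean of 6 NC samples, with colours from −2 (blue) to 2 (red). COM-6 is the darkest column, with 38 members more than 1 below the NC mean on this log2(FPKM + 1) scale, and the rows from Mrpl33 to Mrps17 are blue in all COM and COM+Met samples.

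Mrps18 has 3 paralogs in mouse, of which Mrps18b and Mrps18c sit in the small subunit and Mrps18a in the large one. In NC their means were 21.5 ± 2.90 (Mrps18a), 17 ± 1.83 (Mrps18b) and 38.9 ± 6.03 FPKM (Mrps18c). Mrps18c fell in COM to 27.1 ± 5.51 FPKM (−0.52, limma adjusted p = 0.0123, not called with size factors), while Mrps18a and Mrps18b had log2 fold changes of −0.09 and −0.08 and did not pass. In COM+Met, Mrps18a (25.1 to 29.5 FPKM) and Mrps18b (18.6 to 21.4 FPKM) were higher than in NC and Mrps18c (28.4 to 32.4 FPKM) was lower. The ratio of Mrps18a to Mrps18c, which no scaling of a whole sample can change, was 0.50 to 0.692 in NC, 0.546 to 1.01 in COM and 0.821 to 0.948 in COM+Met. The ratio of Mrps18b to Mrps18c was 0.364 to 0.552, 0.523 to 0.670 and 0.587 to 0.688, so NC and COM+Met did not overlap in either ratio.

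**Figure D5:**
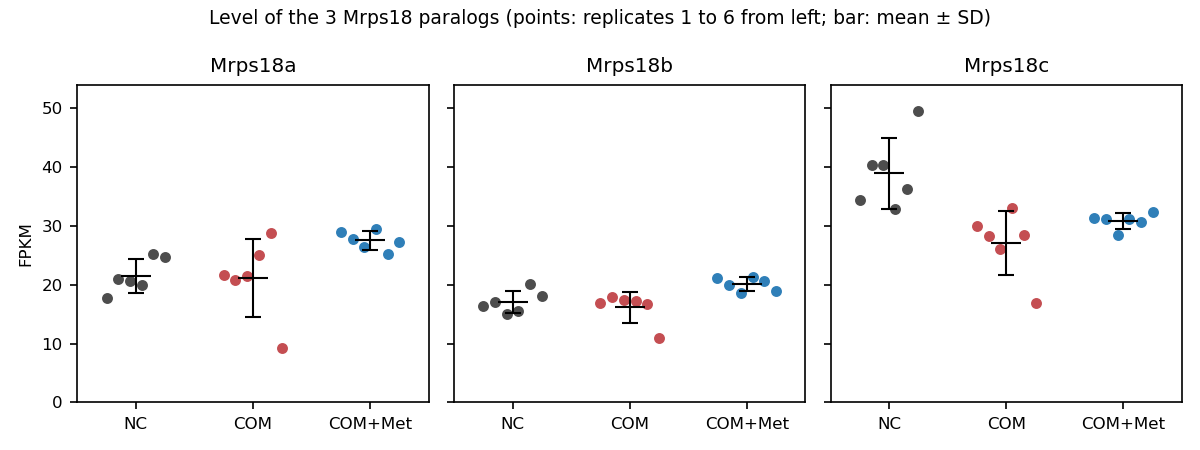
FPKM (y axis, linear, from 0, shared) of Mrps18a, Mrps18b and Mrps18c, with 1 point per sample and bars for mean ± SD of 6 samples. Mrps18c is the highest in NC at 38.9 ± 6.03 and lies at 30.8 ± 1.32 in COM+Met, while Mrps18a moves from 21.5 ± 2.90 to 27.5 ± 1.61.

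Mrps30 and Mrps36, whose names do not give their place, come first here. Mrps30 was at 5.42 ± 0.368 FPKM in NC, 5.40 ± 0.846 in COM and 5.59 ± 0.849 in COM+Met and passed in none of the 3 comparisons on the deposited scale. Mrps36 fell in COM by 0.45 on the log2 scale (20.8 ± 3.75 to 15.2 ± 3.88 FPKM, limma adjusted p = 0.0437, called neither with size factors nor, at −0.32 and limma adjusted p = 0.0572, without COM-6) and was at 18.6 ± 0.831 FPKM in COM+Met. Mrps28, which sits in the small subunit as its name says, did not pass in any comparison (6.86 to 12.7 FPKM in NC, 1.62 to 10.8 in COM). 5 mitoribosomal proteins carry other names, Dap3, Ptcd3, Chchd1, Aurkaip1 and Gadd45gip1, and 0 of these 5 passed in COM against NC, with log2 fold changes from −0.59 to 0.18. At an unadjusted limma p below 0.05 the count was also 0 of 5, and with size factors 1 (Chchd1, higher). Chchd1 rose with Met (17.3 ± 2.41 FPKM in NC, 19.7 ± 2.72 in COM, 26.5 ± 2.91 in COM+Met, log2 fold change 0.41 and limma adjusted p = 0.0205 against COM).

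Beside the members, the other machinery of mitochondrial gene expression was counted in the same fit. In COM against NC 9 of 24 assembly factors fell and 1 rose, 5 of 15 translation factors fell and 1 rose, and 10 of 19 genes of mitochondrial aminoacyl-tRNA synthesis fell and 1 rose, beside the 40.6% and 12.7% of all genes. With size factors these were 2 lower and 3 higher, 1 lower and 3 higher, and 4 lower and 1 higher. Of all genes 24% were lower and 22.9% higher there. Slirp, which stabilises mitochondrial mRNAs, rose by 0.59 (5.31 ± 0.864 to 8.48 ± 1.14 FPKM), and Polg, the mitochondrial DNA polymerase, fell by 0.97 (12.2 ± 1.19 to 6.07 ± 2.10 FPKM). Ears2, the glutamyl-tRNA synthetase, rose by 0.45, and Qrsl1, a subunit of the amidotransferase that makes glutaminyl-tRNA, fell by 0.92. Of 11 genes of mitochondrial DNA transcription and maintenance 7 fell and 0 rose (2 and 0 with size factors), beside the same shares of all genes. With Met against COM 2 of 24 assembly factors rose, the GTPases Mtg2 (0.71) and Noa1 (0.41), and 0 fell. Of all genes 5.77% rose and 7.58% fell in that comparison. Of 9 regulators of mitochondrial biogenesis 6 fell in COM against NC (5 with size factors), beside 40.6% of all genes (24% with size factors). Among them were Nrf1 (10.1 ± 0.894 to 6.80 ± 0.587 FPKM), Gabpa (15.4 ± 1.74 to 9.27 ± 2.28) and Myc (11.3 ± 1.92 to 0.328 ± 0.153).

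Cytosolic ribosomal proteins and the nuclear and mitochondrially encoded respiratory chain subunits gave the following values in the same fit. Of all genes 40.6% fell and 12.7% rose in COM, and with size factors 24% fell and 22.9% rose. Of 83 cytosolic ribosomal proteins tested 78 fell in COM and 0 rose, with a median log2 fold change of −1.30, and with size factors 76 fell and 1 rose. Of 79 nuclear respiratory chain subunits 47 fell and 0 rose (median −0.52, 23 and 3 with size factors), and of 13 mitochondrially encoded mRNAs 6 fell and 0 rose (median −0.49, 1 and 0 with size factors). The members' 27 falls and 5 rises of 78 and median of −0.34 stand beside these without a test of the difference. Mrpl49 and the cytosolic ribosomal protein gene Fau start 59 bases apart on opposite strands, and Mrpl49 was at 10.7 ± 1.30 FPKM in NC and 9.91 ± 1.59 in COM (−0.11, limma adjusted p = 0.432) while Fau fell from 599 ± 69.3 to 276 ± 101 FPKM (−1.24, limma adjusted p = 0.00373). Mrpl30 and Mitd1, 66 bases apart, both rose in COM, by 0.45 and 1.24. Of 29 such partners tested 13 fell and 5 rose, beside 40.6% and 12.7% of all genes. These partners include the members Mrps11 and Mrpl46, each the partner of the other.

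Several members share exon bases with another gene, 23 in all and 12 over at least 10% of their exon length. Beside Mrpl53 and Mrps25, 63.4% of the exon bases of Mrps34 lie opposite Mapk8ip3 and 36% of those of Mrpl19 opposite Gcfc2, and values of these 4 are uncertain to that degree. Across the 78 members the log2 fold change with Met against COM had a Spearman correlation of 0.348 with GC content and of −0.247 with transcript length. For COM against NC these were −0.135 and 0.0644. Members share libraries and are not independent, so these are descriptions only.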

How the data were processed

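RNA-seq was done on 18 macrophage samples, 6 in each of 3 groups set by the sample labels. Libraries were made from 1 μg of Trizol-extracted total RNA with a TruSeq RNA kit. The authors deposited 1 table of FPKM values per gene. Bowtie 0.12.2, an aligner, is named in the notes of the submitters, which list mm9 and mm8 as builds. For the FPKM program, the annotation and the use of strand, nothing is given in the sources used here. FPKM keeps no read counts and whole reads could not be recovered, so depth is unknown and no counting interval is given. FPKM per sample summed to 380731 to 449186, and values are relative to that sum, so a change in abundant mRNAs moves all others.

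The members and the gene lists were chosen with earlier results of these data known. Each comparison of 2 groups was fitted with limma 3.58.1 (R 4.3.3, trended variance) on log2(FPKM + 1) keeping genes whose mean over its 12 samples was 1 FPKM or more, and p-values were adjusted by Benjamini-Hochberg over all genes tested. A call is an adjusted p below 0.05. Fold changes on this scale understate those of low genes. Single values were compared with a two-sided exact permutation test (R 4.3.3). The script was tested on simulated data. Members named were up to 5 called rises and falls per comparison of NC with COM and of COM with COM+Met whose groups did not overlap, the 5 highest and 5 lowest in level, the stalk, decoding centre, exit tunnel and Mrps18 members, and Mrpl58, Mrps28, Mrps30 and Mrps36. From the other lists of mitochondrial translation the 2 largest called rises and falls were named. Mrpl32, Mrpl38, Mrpl42, Mrpl49, Mrps17 and the regulators were named after their values were seen. Alternatives were median-of-ratios size factors, quantile scaling, pseudocounts of 0.1 and 5, no filter or one of 5 FPKM, rescaling to equal sums, 1 fit of all 18 samples, sample weights, GC and length correction, a replicate block and left-out samples. Positions came from GENCODE M21 (GRCm38) and promoters from RefSeq (GRCm38.p6). Figures were drawn with matplotlib 3.10.9.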

Additional observations from a re-analysis of the deposited data

Results flagged for a closer look

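In groups of 6 samples a sample was singled out when its gap to the nearest other sample was a larger part of the group's range than Dixon's 95% critical value, which chance does in about 1 of 20 groups. 10 of 114 groups met this, and 8 of the 10 were COM-6. In that library the median member was at 7.15 FPKM (next lowest COM sample 12.5) and the members summed to 693 FPKM (next 1086). Mrps12 was at 1.54 FPKM (next 12.2), Mrps26 at 0.375 (next 2.47), Mrpl28 at 5.27 (next 13.4), Mrps18b at 10.9 (next 16.7) and Mrpl30 at 32.7 (next 41.1). Mrpl39 was the highest COM sample there, at 14.7 FPKM (next 11.8). Beside COM-6, Mrps36 was at 20.3 FPKM in COM+Met-6 (next highest 18.6) and Mrpl33 at 65.6 FPKM in NC-6 (next 52.7).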

How the results depend on the processing

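Counts of members called moved with scaling. Where no share of all genes stands beside a count, or 1 direction alone is given, the count is not set against the background here. In COM against NC (5 higher, 27 lower) they were 11 and 9 with size factors (22.9% and 24% of all genes). Quantile scaling gave 11 and 12, and removing GC and length trends gave 15 and 11. Sample weights gave 13 higher. COM-1 to COM-3 alone gave 9 higher and 23 lower (17.7% and 36.6% of all genes). COM-4 to COM-6 alone gave 3 higher and 40 lower (11.7% and 50.2%), and leaving out NC-5 and NC-6 gave 3 and 13 (10.7% and 32.3%). In COM+Met against COM (5 higher, 0 lower) 9 were higher with size factors (7.91% of all genes). With quantile scaling 12 were higher, and with GC and length trends removed 9. Sample weights gave 22 higher and 13 lower. COM-1 to COM-3 gave 19 and 10 (17.8% and 43.4% of all genes), and COM-4 to COM-6 18 and 0 (16.1% and 7.77%). In COM+Met against NC (15 higher, 28 lower) they were 36 and 10 with size factors (34.8% and 35.9% of all genes). Quantile scaling gave 34 and 11, removing GC and length trends 34 and 11, and sample weights 24 higher. Chosen after seeing the data, COM-6 left out with size factors gave 19 and 11 in COM against NC and 18 and 1 in COM+Met against COM, and COM-6, NC-5 and NC-6 left out gave 8 higher in COM against NC. With the replicate number as a block 3 were higher and 17 lower in COM against NC, 3 were higher in COM+Met against COM, and 14 were higher and 27 lower in COM+Met against NC. Deviations of same-numbered samples correlated at −0.114 to −0.026, −0.222 to 0.034 and −0.106 to 0.057 in the 3 comparisons, so the numbers were not taken to pair samples.

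Leaving out 1 sample at a time gave 2 (without NC-1 or NC-4) to 7 (without COM-6) higher and 19 (without NC-5 or NC-6) to 30 (without COM-1 or COM-6) lower in COM against NC, 3 to 13 (without COM-6) higher and 0 lower in COM+Met against COM, and 13 to 19 higher and 24 to 33 lower in COM+Met against NC. Over all settings the members' median ran from −0.49 to 0.012, from 0.024 to 0.36 and from −0.16 to 0.16.

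Some log2 fold changes changed sign. In COM against NC, Mrpl27 was at 0.26 and Mrpl44 at 0.27 with sample weights, Mrps21 at 0.18, Mrpl27 at 0.38 and Mrps18b at 0.24 with GC and length trends removed, and Mrpl27 at 0.39 with COM-1 to COM-3. With COM-6 left out and size factors, Mrpl27 was at 0.44, Mrpl44 at 0.37, Mrps18a at 0.37 and Mrps18b at 0.26. In COM+Met against COM, sample weights gave −0.32 for Mrpl33, −0.22 for Mrps26, −0.31 for Mrpl52, −0.22 for Mrpl17, −0.18 for Mrpl44 and −0.32 for Mrps28, and COM-1 to COM-3 gave −0.34 for Mrpl33, −0.27 for Mrps26 and −0.21 for Mrpl44. In COM+Met against NC, size factors gave 0.13 for Mrpl20, 0.044 for Mrpl10 and 0.032 for Mrpl11, quantile scaling 0.30 for Mrps25, 0.042 for Mrps35, 0.25 for Mrpl19 and 0.082 for Mrpl11, and the GC and length fit 0.24 for Mrps25, 0.11 for Mrpl20, 0.18 for Mrpl19 and 0.027 for Mrpl11. The cause was not tested. Of the other values of named members, 855, 861 and 777 kept their side of the threshold in the 3 comparisons, and 57, 36 and 21 of these changed sign with no call in either fit. Another 86, 18 and 41 lost a call and 50, 39 and 28 gained one. Depth is unknown, so its part in the precision of low members could not be given.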
